A study of Homo sapiens with 9 samples.

Results

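The genes described here are 33 genes of the NF-kB system, picked by symbol from the 57733 genes in the deposited tables: 5 subunits of the factor, 5 inhibitor-type proteins, 5 kinases, 8 adaptors and ubiquitin ligases, 4 brakes on the signal and 6 response genes. All 33 were found by symbol, each in 1 row. NF-kB factors are dimers of Rel-domain proteins that are held in the cytoplasm by inhibitors of the IkB family. Signals from cytokine receptors, passed on by TRAF and cIAP adaptors, activate IkB kinases, the inhibitor is degraded, and the freed dimer binds kappaB sites in DNA. Several of its targets, among them NFKBIA and TNFAIP3, encode proteins that end the response, and NF-kB activity has long been studied in pancreatic cancer cells.

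Nascent RNA was sampled in PANC-1, an established human pancreatic carcinoma line, as WT (a control PANC-1 line that received no guide RNA) and as KDM6A KO C22 and KDM6A KO C28, which are single CRISPR/Cas9 clones aimed at KDM6A (UTX), a histone H3 lysine 27 demethylase. All cells were given 2 mM bromouridine for 30 min and taken with a chase of 0 h, and BruUV-seq cells also received 100 J/m2 of UV light, whose lesions block polymerases and shift signal towards gene starts. There were 2 Bru-seq libraries (replicates 1 and 2) and 1 BruUV-seq library for each line, 9 in all. The labels do not say that replicates came from separate cultures, so the p-values describe the spread among these libraries alone, which may be technical, and because each knockout genotype is 1 clone, clone and genotype cannot be told apart. In these bulk libraries fewer cells of a type and less RNA per cell cannot be told apart.

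The promoters are shown first because kappaB sites are where the factor meets its targets. RefSeq windows on GRCh38.p14, from 250 bases before to 50 after a transcript's first base, existed for 29 of the 33 genes (NFKBIE, RELB, IKBKB and RIPK2 had none). The kappaB consensus, searched on both strands, matched in at least 1 window of 15 of those 29 genes (51.7%), against 1937 of 27305 genes (7.09%) with a window in the whole table. Counted by window, 20 of 46 (43.5%) matched, against 2075 of 35116 (5.91%). Genes with several windows had more chances to match. The 4 promoters printed here were chosen among the genes with a match, 1 for each of 4 roles, namely the inhibitor NFKBIA, the ligase BIRC3, the brake TNIP1 and the secreted protein PTX3. The windows of TRAF1, BCL2A1, BIRC2 and ICAM1, which are also described at length, held no match, which says only that these letters are not in those windows. Capitals mark the matches to the kappaB consensus, and each sequence runs 5′ to 3′ on the gene's strand and stops before the first base of the gene in RefSeq or in the deposited tables.
NFKBIA: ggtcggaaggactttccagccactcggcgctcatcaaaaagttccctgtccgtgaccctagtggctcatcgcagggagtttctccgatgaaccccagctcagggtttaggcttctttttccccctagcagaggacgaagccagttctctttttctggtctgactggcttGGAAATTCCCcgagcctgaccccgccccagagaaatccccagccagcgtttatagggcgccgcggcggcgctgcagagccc
BIRC3: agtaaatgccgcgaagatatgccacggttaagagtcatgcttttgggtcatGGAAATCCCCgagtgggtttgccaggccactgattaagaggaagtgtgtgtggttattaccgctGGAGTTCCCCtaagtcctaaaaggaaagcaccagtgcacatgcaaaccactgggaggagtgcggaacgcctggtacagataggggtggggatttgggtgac
TNIP1: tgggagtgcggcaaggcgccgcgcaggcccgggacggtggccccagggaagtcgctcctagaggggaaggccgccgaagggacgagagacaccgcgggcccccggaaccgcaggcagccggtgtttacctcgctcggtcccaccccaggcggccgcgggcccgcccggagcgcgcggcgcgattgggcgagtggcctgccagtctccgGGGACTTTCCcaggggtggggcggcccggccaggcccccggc
PTX3: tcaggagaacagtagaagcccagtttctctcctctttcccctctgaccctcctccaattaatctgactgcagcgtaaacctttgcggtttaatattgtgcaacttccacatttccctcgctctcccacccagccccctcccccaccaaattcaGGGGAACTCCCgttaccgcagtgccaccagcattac
These runs lie at chr14:35404750-35404999 on the minus strand (NFKBIA, 250 bases), chr11:102317234-102317449 on the plus strand (BIRC3, 216 bases), chr5:151081035-151081284 on the minus strand (TNIP1, 250 bases) and chr3:157436600-157436788 on the plus strand (PTX3, 189 bases).

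In NFKBIA the match began 81 bases before the RefSeq start. BIRC3 had matches 199 and 135 bases before it. TNIP1 had a match 42 bases before a RefSeq start that lies inside the gene as the tables draw it. In PTX3 the capitals are a single site that matches on both strands, 97 and 96 bases before the start. Some letters recurred among the genes: GGGAATTTCC, on one strand or the other, stood in the windows of NFKB1, NFKBIA, NFKBIB, NFKBIZ and REL and in 0.145% of all windows. GGGACTTTCC stood in those of CYLD, NFKB2, TNFAIP3 and TNIP1 (0.191% of all windows), and GGGGATTTCC in those of BIRC3, TNFAIP3 and TRAF3 (0.111%). BIRC3 and PTX3 shared GGGGAACTCC (0.0883%). A match is a description of letters and not evidence of a bound site.

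Library depth bears on every value that follows. Reads in genes came to 15.8 M to 31.1 M per Bru-seq library except for KO C28 replicate 2 with 5.64 M, and to 14.4 M to 22.2 M in BruUV-seq. In KO C28 replicate 2, 46.5% of reads lay outside genes, against 9.93% to 20.01% in the other 8 libraries, so values that rest on it are also given without it for the genes described at length. None of the 33 genes had under 10 reads in any library. Reads over KDM6A, which span the whole gene body and do not show a small lesion, stood at 322 and 276 CPM in WT, 287 and 427 in KO C22, then 337 and 65.9 in KO C28, and at 203, 125 and 201 CPM in BruUV-seq in the same order of lines. CPM here is the count scaled to library size after TMM, a correction for library composition. All 8 markers of epithelial tumour cells had at least 10 reads in every library, with sums of 999 to 1560 CPM in WT, 740 to 2100 in KO C22 and 1440 to 3480 in KO C28. Of the markers of other cells, the 9 leukocyte genes summed to 1.30 to 2.86 CPM in WT, 2.34 to 8.62 in KO C22 and 1.29 to 32.0 in KO C28 (CD3E, LYZ, CD68 and CD79A had under 10 reads everywhere), the 6 fibroblast genes to 2.65 to 6.43, 6.13 to 39.2 and 4.59 to 22.2, and the 5 endothelial genes to 1.90 to 2.84, 1.71 to 5.19 and 3.99 to 25.9. Their part in the results was not tested.

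In WT cells the most strongly transcribed members per length were regulators of the pathway, not the subunits of the factor. Levels between genes are compared as RPKM (reads scaled by gene length and library size), averaged over the 2 Bru-seq replicates of WT. NFKBIZ, an atypical nuclear IkB protein, led with 3.72 and 11.1 RPKM (mean 7.39 ± 5.18, SD, n = 2), a spread that overlapped BIRC2 (cIAP1, a ubiquitin ligase) at 7.30 ± 0.730. MAP3K14, the NIK kinase of the alternative pathway, followed at 6.06 ± 0.577, and NFKBIA, the IkB-alpha inhibitor, at 5.28 ± 0.0178. Below them came BIRC3 (cIAP2) at 5.19, the syndecan SDC4 at 4.99, RIPK2, the kinase that serves NOD receptors, at 3.80, NFKBIB at 3.69 and IRAK1 at 3.19. The first subunit was RELA (p65) at 2.78 ± 0.961, above NFKB1 at 1.76, REL at 1.68, NFKB2 at 0.915 and RELB at 0.331. The lowest were PTX3 at 0.110 and IKBKE at 0.0508. Replicates of neighbours in this order did not overlap at 6 places: BIRC2 over MAP3K14, MAP3K14 over NFKBIA, NFKBIB over IRAK1, CYLD over IKBKB, RELB over PTX3 and PTX3 over IKBKE. The median over the 33 genes was 1.17 RPKM and over the 22827 genes tested in Bru-seq 0.437.

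The 2 WT Bru-seq libraries differed in NF-kB genes before any knockout was considered. In replicate 2, 26 of the 33 genes stood higher than in replicate 1, and 10 stood over 2-fold higher (30.3%, against 19.3% of all genes), while none stood over 2-fold lower (16.1% of all genes). The largest gap was in ICAM1, the adhesion molecule that binds leukocytes, at 4.35 and 23.4 CPM (5.38-fold). TNFAIP2 differed 3.92-fold, SDC4 3.84-fold, NFKB2 3.10-fold, RIPK2 3.08-fold, TRAF1 3.07-fold, NFKBIZ 3.06-fold, TNFAIP3 2.93-fold, MAP3K8 2.58-fold and NFKBIE 2.09-fold. BIRC3, NFKBIA, TRAF3 and RELB differed by 1.01- to 1.11-fold. In KO C22 only 3 genes were over 2-fold higher in replicate 2 (9.09%, all genes 14.3%) and 2 lower (all genes 27.1%), NFKBIA by 3.48-fold and PTX3 by 3.23-fold. In KO C28, 4 were over 2-fold higher (12.1%, all genes 35.1%) and 12 lower (all genes 31%), with NFKBIZ 5.03-fold, REL 4.97-fold and NFKB1 4.45-fold lower in the shallow replicate 2, and IKBKE 4.04-fold and NFKB2 3.55-fold higher.

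**Figure D1:**
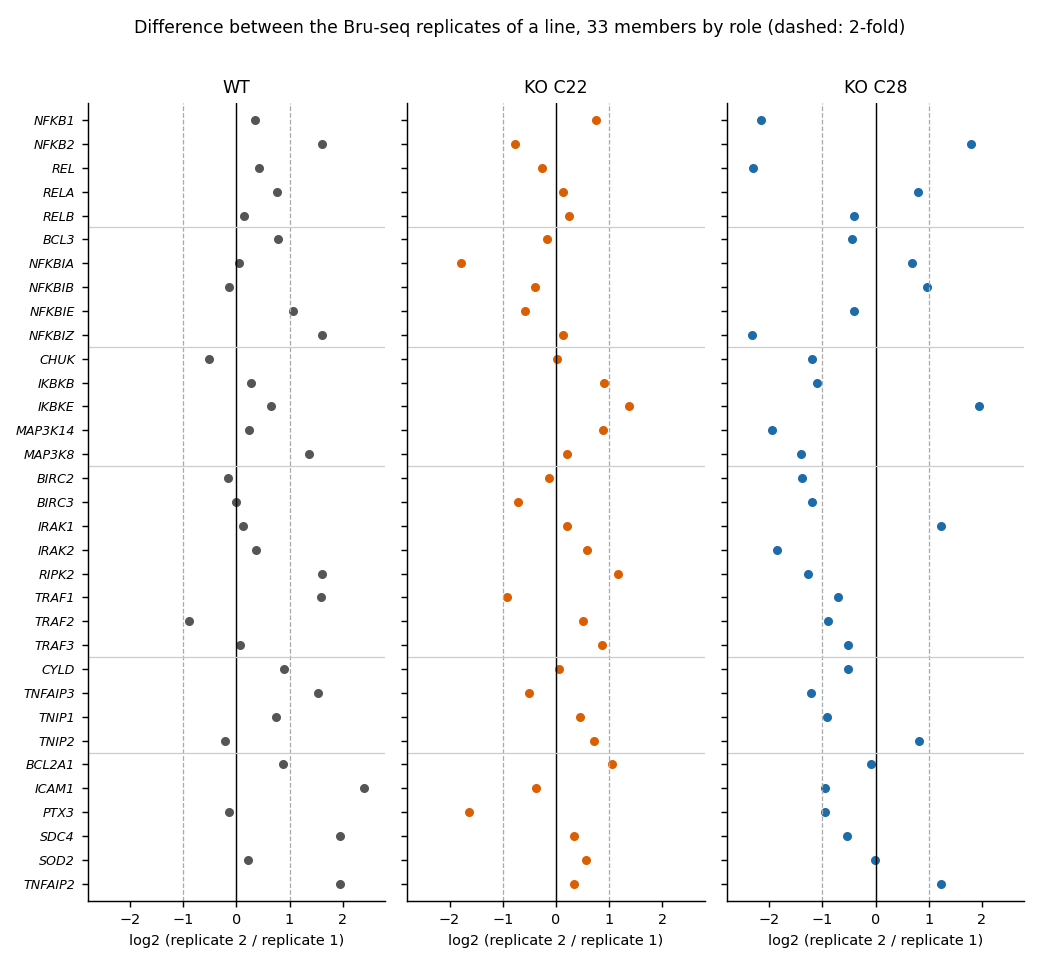
For each of the 33 genes (vertical axis), the log2 ratio of CPM in Bru-seq replicate 2 over replicate 1 (horizontal axis) is drawn for WT, KO C22 and KO C28, with dashed lines at a 2-fold difference. In WT 10 points lie beyond the right line and none beyond the left, and in KO C28 12 lie beyond the left, where all genes also spread widely (31% beyond it).

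Between lines, none of the 33 genes passed an adjusted p of 0.05 in the edgeR quasi-likelihood test, either in the fit of the 6 Bru-seq libraries or in the fit of all 9 libraries with the assay as a covariate. Few genes of any kind did: with 9 libraries 0.125% were called higher and 0.0528% lower in KO C22 than in WT, 0.0817% higher and 0.0432% lower in KO C28, and 0% in either direction between the clones. In the Bru-seq fit the corresponding shares were 0% and 0.00438% for each clone against WT, and 0% and 0% between the clones. The spread between libraries was wide, with a common biological coefficient of variation of 79.3% in the Bru-seq fit and 63.4% with both assays. At an unadjusted p below 0.05 with 9 libraries, 4 members stood higher in KO C22 than in WT (TRAF1, TNIP1, PTX3 and BIRC3; 3.20% of all genes) and none lower (2.66%). For KO C28 1 stood higher (PTX3; 7.55% of all genes) and 4 lower (BCL2A1, BIRC3, MAP3K8 and ICAM1; 2.91%). Between the clones, 7 stood lower in KO C28 than in KO C22 (BIRC3, BCL2A1, TNIP1, TRAF1, BIRC2, TNFAIP3 and ICAM1; 2.75% of all genes) and none higher (2.96%). In the Bru-seq fit the same count was 1 higher and 0 lower for KO C22 (TRAF1; 1.24% and 0.767% of all genes), 1 higher and 3 lower for KO C28 (PTX3, and BCL2A1, MAP3K8 and ICAM1; 4.65% and 1.63%), and 0 higher and 7 lower between the clones (1.77% and 1.50%). DESeq2 on the 9 libraries called 3 members in KO C22 (PTX3, TRAF1 and TNIP1), 2 in KO C28 (PTX3 higher and BCL2A1 lower) and 5 between the clones (BIRC3, BCL2A1, TNIP1, TRAF1 and BIRC2, all lower in KO C28), where it called 1.28% of all genes higher in KO C22, 2.96% higher and 0.902% lower in KO C28, and 0.620% lower between the clones. On the Bru-seq libraries it called BIRC3 alone, between the clones (0.222% of all genes). Without the filter on low counts edgeR called TRAF1 in KO C22 (0.417% of all genes), PTX3 higher and BCL2A1 lower in KO C28 (2.29% and 0.427%), and BIRC3, TRAF1, BCL2A1 and TNIP1 lower between the clones (0.227%). limma-voom called none between lines.

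**Figure D2:**
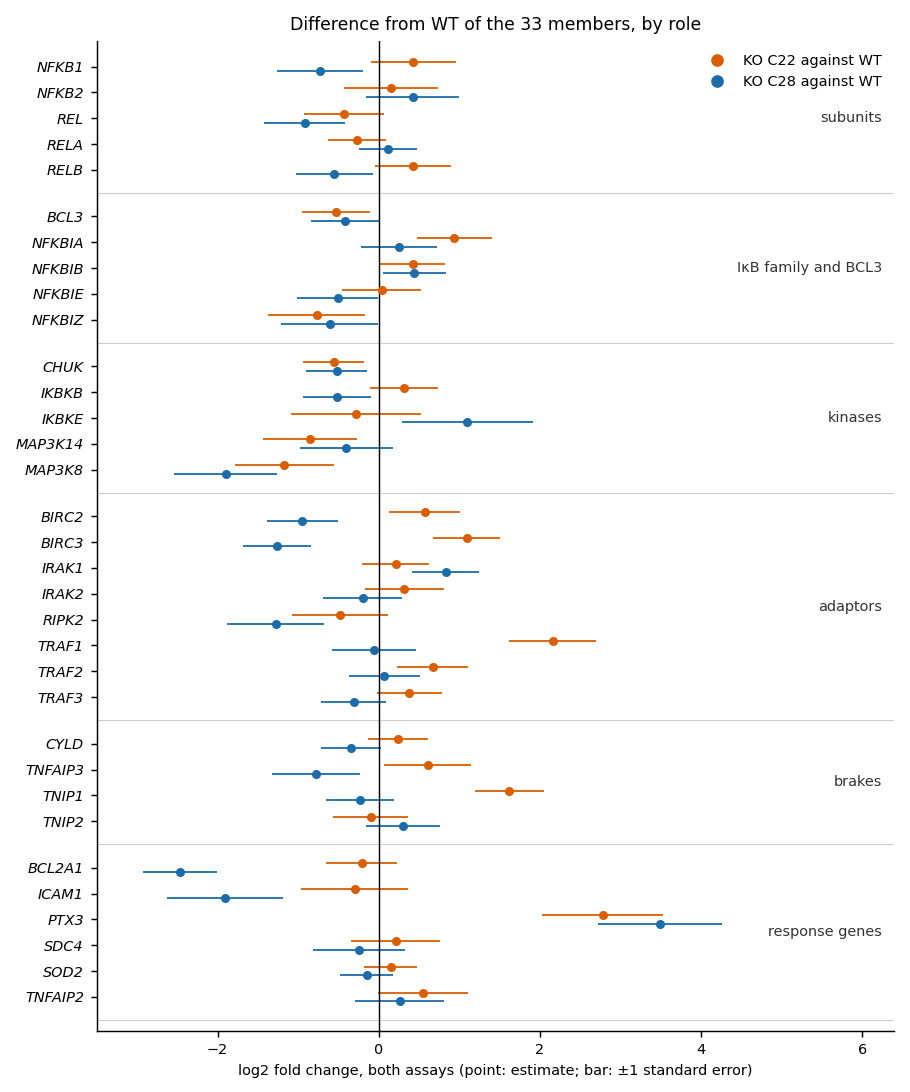
Log2 fold change of each of the 33 genes against WT (horizontal axis, with bars of 1 SE from the 9-library fit) is drawn by role for KO C22 (orange) and KO C28 (blue). The clones lie apart for TRAF1, TNIP1, BIRC3 and BCL2A1, with KO C28 on the lower side, and PTX3 lies above WT in both.

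The members as a group leaned opposite ways in the clones. The median log2 fold change was 0.21 in KO C22, with 21 of 33 genes above WT (median of all genes 0.02), and -0.34 in KO C28, with 10 of 33 above WT (all genes -0.06). Directly between the clones it was -0.55, with 11 of 33 higher in KO C28 (all genes 0.01). These comparisons share libraries. The 8 epithelial markers lay the other way: all 8 stood higher in KO C28 than in KO C22 (median log2 difference 1.89, 5 of them at an unadjusted p below 0.05 and none called by edgeR), 5 of 8 stood above WT in KO C28 (median 1.03), and 6 of 8 stood below WT in KO C22 (median -0.41). Their part in the lean of the members was not tested. Without KO C28 replicate 2 the medians were -0.17 for KO C28 against WT and -0.31 between the clones. No member was called without that library in any of the 3 comparisons of lines with both assays (edgeR; all genes 0.446% higher and 0.200% lower in KO C22, 0.182% and 0.123% in KO C28, 0.0273% and 0.0546% between the clones). At an unadjusted p below 0.05, 5 members then stood higher and 2 lower in KO C22 (all genes 5.36% and 5.38%), 1 and 3 in KO C28 (2.45% and 2.92%), and 1 and 5 between the clones (2.14% and 3.13%). The KO C22 median moved with the WT library used as well, to 0.06 without WT replicate 1 and to 0.46 without WT replicate 2, and KO C28 moved to -0.11 without WT replicate 2. In Bru-seq alone the KO C22 median was 0.12 and turned to -0.27 without WT replicate 1.

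Counting genes whose libraries do not overlap between lines, within Bru-seq and within BruUV-seq at once, gave 8 members higher in KO C22 than in WT (24.2%, against 10.2% of all genes) and 4 lower (12.1%, all genes 12.2%). The 8 were NFKBIA, RELB, TNIP1, TRAF1, TRAF2, BIRC2, BIRC3 and PTX3, and the 4 were REL, MAP3K8, MAP3K14 and CHUK. These counts rest on CPM after TMM. By RPKM NFKBIA would not be among the 8 (4.24 in KO C22 replicate 2, 5.27 and 5.30 in WT). Nor would TRAF2, at 1.73 in KO C22 and 1.75 in WT in BruUV-seq. For KO C28 against WT 2 were higher (PTX3 and IRAK1; all genes 12.9%) and 9 lower (REL, BIRC2, BIRC3, ICAM1, BCL2A1, SOD2, MAP3K8, IKBKB and RIPK2; 27.3%, all genes 14.0%). For KO C28 against KO C22 none was higher (all genes 7.99%) and 11 were lower (33.3%, all genes 11.0%), namely NFKB1, TNFAIP3, TNIP1, TRAF1, TRAF3, BIRC2, BIRC3, ICAM1, BCL2A1, SOD2 and CYLD. The rule sets no least size of difference. SOD2 was counted as lower in KO C28 both times, with log2 differences of -0.15 (SE 0.33) from WT and -0.30 (SE 0.33) from KO C22. Without KO C28 replicate 2, a count added after the values were seen, 2 members were higher (all genes 20.2%) and 9 lower (all genes 19.1%) in KO C28 than in WT. Between the clones 12 were then lower (all genes 16.5%) and 5 higher (NFKBIZ, PTX3, BCL3, MAP3K14 and CHUK; all genes 18.5%). The rule is easier to pass with 1 library fewer. The part of that library in the absence of higher genes therefore cannot be told apart from that of the easier rule. With all libraries, 6 of the 15 genes with a kappaB match in a promoter window were lower in KO C28 than in KO C22. Among the 14 with a window and no match, 5 were. Median log2 differences with both assays were 0.38 for matched genes, against 0.02 for unmatched ones, when KO C22 was compared to WT. Against WT, KO C28 had -0.34 (matched) and -0.1 (unmatched), while the clones differed by -0.59 and -0.3. BruUV-seq against Bru-seq gave -0.08 (matched) and 0.78 (unmatched). The part of the match in these values was not tested.

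**Figure D3:**
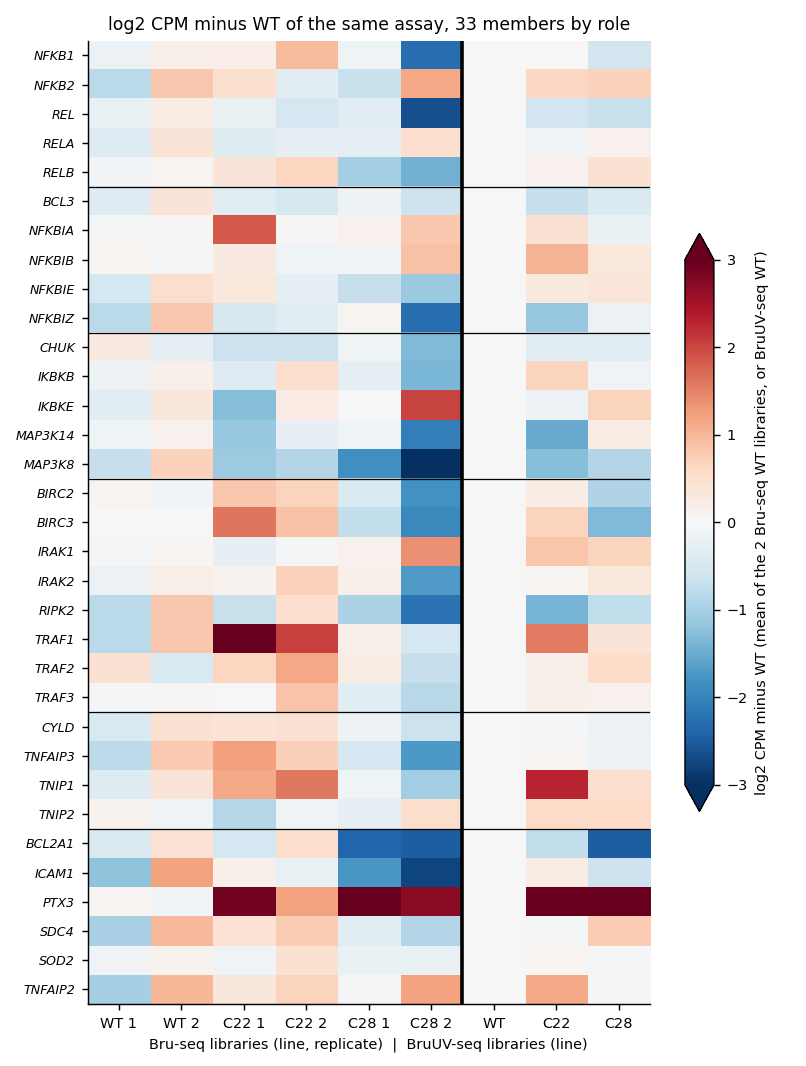
The heat map gives log2 CPM of the 33 genes (rows) in each library (columns) minus the WT level of the same assay, taken as the mean of the 2 WT libraries for Bru-seq. Red cells, above WT, cluster in the KO C22 columns at TRAF1, TNIP1 and BIRC3, and blue cells fill much of the column of Bru-seq KO C28 replicate 2.

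Among the subunits, the classical p50 precursor NFKB1 stood at 217 and 277 CPM in the Bru-seq libraries of WT, 283 and 476 in KO C22, then 224 and 50.4 in KO C28, and at 106, 105 and 72.8 CPM in the BruUV-seq libraries of these lines in that order. KO C22 was highest in Bru-seq and level with WT in BruUV-seq, and the low KO C28 value came from replicate 2. Its log2 difference between the clones was -1.16 (SE 0.54, adjusted p = 0.837 by edgeR, n = 3 libraries per line), and -0.73 (SE 0.53) for KO C28 against WT. Without that library they were -0.70 (SE 0.34) and -0.30 (SE 0.33). RELA, the main transactivating subunit, stood at 23.8 and 40.3 CPM in WT, 24.0 and 26.3 in KO C22, then 25.3 and 43.9 in KO C28, and at 71.1, 66.1 and 77.7 in BruUV-seq, with overlapping lines and log2 differences of -0.27 (SE 0.36) and 0.11 (SE 0.36) against WT. RELB, a subunit of the alternative pathway that is itself a target, stood at 14.0 and 15.5 CPM in WT, 19.3 and 23.0 in KO C22, then 7.20 and 5.45 in KO C28. The lines did not overlap in Bru-seq and KO C28 was lowest there, but in BruUV-seq KO C28 was highest (30.9, 33.8 and 42.2 CPM). REL had log2 differences of -0.43 (SE 0.50) in KO C22, and in KO C28 of -0.92 (SE 0.50), and NFKB2 of 0.15 (SE 0.58) and 0.42 (SE 0.58), and neither passed the test. Without KO C28 replicate 2 the KO C28 values were -0.47 (SE 0.29) for REL and, with the sign turned, -0.18 (SE 0.57) for NFKB2.

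The inhibitors did not move together. NFKBIA, whose protein masks the nuclear signal of RELA, stood at 20.3 and 21.0 CPM in WT, 73.9 and 21.2 in KO C22, then 22.4 and 36.3 in KO C28, and at 42.4, 57.8 and 36.7 CPM in BruUV-seq. In CPM every KO C22 library was above WT, though replicate 2 lay next to it. As RPKM, which has no TMM scaling, that replicate stood at 4.24, below the WT replicates at 5.27 and 5.30. The log2 difference of 0.94 (SE 0.47) in KO C22 had an adjusted p of 0.909 by edgeR. In KO C28 it was 0.25 (SE 0.47). NFKBIB, NFKBIE and BCL3, a nuclear partner of p50 dimers, had log2 differences of 0.42 (SE 0.40), 0.04 (SE 0.49) and -0.53 (SE 0.42) in KO C22, and in KO C28 of 0.44 (SE 0.39), -0.51 (SE 0.50) and -0.42 (SE 0.42). NFKBIZ stood at 146 and 447 CPM in WT, 184 and 201 in KO C22, then 269 and 53.5 in KO C28, and the WT replicates enclosed all but the last of these values.

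Of the 5 kinases, 4 lay below WT in each clone, with median log2 differences of -0.56 in KO C22 and -0.52 in KO C28, and none passed the test. MAP3K8 (TPL2, which activates ERK signalling downstream of IkB kinase) stood at 14.2 and 36.7 CPM in WT, 10.8 and 12.4 in KO C22, then 6.38 and 2.35 in KO C28, and at 11.6, 4.78 and 6.30 CPM in BruUV-seq. All libraries of both clones were below WT of the same assay. The log2 difference was -1.17 (SE 0.61, adjusted p = 0.924) in KO C22 and -1.90 (SE 0.64, adjusted p = 0.457) in KO C28 by edgeR, the latter between 0.0511 and 0.886 over 15 alternative settings, and the KO C28 value was -1.43 (SE 0.53) without replicate 2 of that clone. MAP3K14 stood at 362 and 427 CPM in WT, 180.1 and 331 in KO C22, then 357 and 92.8 in KO C28, and at 512, 179.5 and 599 CPM in BruUV-seq. It was lower in KO C22 in all libraries (log2 difference -0.85, SE 0.58), and its low value in KO C28 came from Bru-seq replicate 2, without which KO C28 stood at 0.09 (SE 0.39) against WT and at 0.99 (SE 0.39) against KO C22. CHUK (IKK-alpha), which acts in the alternative pathway, lay below WT in both clones (-0.56 and -0.52, SE 0.38 each). IKBKB (IKK-beta), the kinase that marks IkB for degradation, was at 0.31 (SE 0.42) and -0.52 (SE 0.42), and IKBKE, an IKK-related kinase with 12 to 97 reads per library, at -0.28 (SE 0.81) and 1.10 (SE 0.81). Without KO C28 replicate 2, IKBKE stood at 0.29 (SE 0.70) in KO C28, and 3 of the 5 kinases lay below WT there (median -0.23).

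Of the adaptors and ligases, 7 of 8 lay above WT in KO C22 (median log2 difference 0.48), and 7 of 8 lay lower in KO C28 than in KO C22 (median -0.75, and -0.41 without KO C28 replicate 2). TRAF1 is an adaptor of TNF-family receptors that is strongly induced by NF-kB. It stood at 5.72 and 17.5 CPM in the Bru-seq libraries of WT, 79.6 and 41.8 in KO C22, then 11.3 and 6.94 in KO C28, and at 13.3, 38.9 and 17.3 CPM in the BruUV-seq libraries. All KO C22 libraries stood above those of the other lines, and KO C28 lay within the range of WT in Bru-seq. The log2 difference was 2.16 (SE 0.54, adjusted p = 0.231) for KO C22 against WT, -0.06 (SE 0.52) for KO C28 against WT, and -2.21 (SE 0.55, adjusted p = 0.442) between the clones by edgeR with n = 3 per line. Over 15 alternative settings the adjusted p of KO C22 against WT ran from 0.00666 with DESeq2 to 1, and that between the clones from 0.0128 to 0.890. Leaving out KO C28 replicate 2 gave -1.90 (SE 0.56) between the clones. Its neighbours PHF19, 7.5 kb away, and C5, 23.2 kb away, stood at 0.60 (SE 0.39) and 0.24 (SE 0.45) in KO C22. Further out, CNTRL (145.7 kb), MEGF9 (187.9 kb) and CDK5RAP2 (322.2 kb) stood at 0.92 (SE 0.44), 0.68 (SE 0.38) and 0.75 (SE 0.47) there. FBXW2, PSMD5, PSMD5-AS1, RAB14, GSN and STOM lay between -0.65 and 0 in KO C22.

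BIRC3 and BIRC2 encode the paired ligases cIAP2 and cIAP1 that attach ubiquitin chains in TNF receptor complexes and lie 7.8 kb apart on the plus strand of chromosome 11. BIRC3 stood at 138 and 137 CPM in WT, 419 and 254 in KO C22, then 82.4 and 35.9 in KO C28, and at 99.3, 156.8 and 39.5 CPM in BruUV-seq. In both assays every KO C22 library lay above WT and every KO C28 library below it. The log2 difference was 1.09 (SE 0.42, adjusted p = 0.708) in KO C22, -1.26 (SE 0.42, adjusted p = 0.457) in KO C28, and -2.34 (SE 0.44, adjusted p = 0.212) between the clones by edgeR. BIRC2 showed the same order, at 292 and 262 CPM in WT, 483 and 442 in KO C22, then 205 and 78.4 in KO C28, and at 202, 235 and 108 CPM in BruUV-seq. Its log2 difference was 0.57 (SE 0.44) in KO C22, -0.95 (SE 0.44, adjusted p = 0.480) in KO C28, and -1.52 (SE 0.44, adjusted p = 0.563) between the clones. Over 15 alternatives the adjusted p between the clones ran from 4.68e-06 to 0.718 for BIRC3 and from 0.0131 to 1 for BIRC2, lowest with DESeq2 in each case. Without KO C28 replicate 2 the differences were -2.05 (SE 0.35) and -1.19 (SE 0.30). Of the other genes nearby, YAP1 (84.0 kb from BIRC3) and TMEM123 (56.9 kb) had smaller differences in the same order, 0.22 and 0.24 in KO C22, then -0.60 and -0.59 in KO C28, while C11orf70 lay below WT in both clones (-2.17 and -1.35).

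The other adaptors differed less. RIPK2 stood at 75.5 and 232 CPM in WT, 83.8 and 189.2 in KO C22, then 69.0 and 28.5 in KO C28, with a log2 difference of -1.28 (SE 0.60, adjusted p = 0.482 by edgeR) in KO C28. IRAK1, a kinase of the interleukin-1 receptor and Toll-like receptor pathway, was the only adaptor higher in KO C28 than in KO C22 (log2 difference 0.61, SE 0.42), at 34.8 and 37.7 CPM in WT, 30.3 and 35.1 in KO C22, then 39.9 and 94.1 in KO C28, where replicate 2 carried most of the difference. Without it RIPK2 stood at -0.87 (SE 0.57) against WT, and IRAK1 at 0.12 (SE 0.31) between the clones. IRAK2, TRAF2 and TRAF3, the last a scaffold that keeps MAP3K14 protein low, had log2 differences of 0.32 (SE 0.49), 0.67 (SE 0.44) and 0.38 (SE 0.40) in KO C22, and in KO C28 of -0.20 (SE 0.49), 0.07 (SE 0.44) and -0.31 (SE 0.40).

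Among the brakes, TNIP1 (ABIN1, a ubiquitin-binding partner of A20) showed the widest gap between the clones with 9 libraries, while in the Bru-seq fit TNFAIP3 (-2.00, SE 0.75) lay beside it (-1.94, SE 0.64). It stood at 41.9 and 70.5 CPM in WT, 119 and 164 in KO C22, then 49.7 and 26.4 in KO C28, and at 66.8, 326 and 94.5 CPM in BruUV-seq. KO C22 was highest in both assays without overlap, and KO C28 overlapped WT in Bru-seq. The log2 difference was 1.62 (SE 0.43, adjusted p = 0.287) in KO C22, -0.23 (SE 0.42) in KO C28 and -1.85 (SE 0.43, adjusted p = 0.339) between the clones by edgeR, with adjusted p from 0.00756 to 1 and from 0.00368 to 1 over 15 alternatives for the first and the last. ANXA6, 13.4 kb away on the same strand, had log2 differences of 0.12 (SE 0.39) and 0.02 (SE 0.39) from WT in KO C22 and KO C28. Further out, SYNPO (370.7 kb) and NDST1 (471.7 kb) stood at 1.88 (SE 0.48) and 1.47 (SE 0.50) in KO C22. GM2A, SLC36A1, DCTN4, RBM22 and SMIM3 lay at 0.67, 0.01, -0.07, -0.4 and -1 in that clone. TNFAIP3 (A20), the ubiquitin-editing enzyme that ends the response, stood at 12.5 and 36.5 CPM in WT, 49.8 and 34.9 in KO C22, then 15.1 and 6.44 in KO C28. Its BruUV-seq levels lay close together at 16.9, 17.9 and 15.1 CPM, and the log2 difference between the clones was -1.38 (SE 0.56, adjusted p = 0.837), and -0.96 (SE 0.52) without KO C28 replicate 2. For TNIP1 it was then -1.59 (SE 0.37). CYLD, a deubiquitinase, and TNIP2 had log2 differences within 0.34 of 0 against WT.

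Against WT with 9 libraries, response genes held the highest log2 difference in each clone (PTX3) and the lowest in KO C28 (BCL2A1). The lowest in KO C22 was that of the kinase MAP3K8 (-1.17). Between the clones BIRC3 was lowest (-2.34) and IKBKE highest (1.39). BCL2A1, an anti-apoptotic BCL2 relative, stood at 19.6 and 36.2 CPM in WT, 18.5 and 38.4 in KO C22, then 5.16 and 4.83 in KO C28, and at 40.1, 23.9 and 7.26 CPM in BruUV-seq. KO C28 was lowest in both assays without overlap, its Bru-seq replicates agreed within 1.07-fold, and KO C22 overlapped WT. The log2 difference was -2.47 (SE 0.46, adjusted p = 0.0855) for KO C28 against WT, the smallest adjusted p of the 33 genes between lines, and -2.26 (SE 0.46, adjusted p = 0.212) between the clones by edgeR. They were -2.41 (SE 0.48) and -2.19 (SE 0.48) without KO C28 replicate 2. Over 15 alternatives the first adjusted p ran from 0.000101 to 0.647. It was below the threshold with DESeq2, without the filter on low counts, and without Bru-seq KO C22 replicate 2 (0.0494; all genes 0.112%). The nearest genes, AC015871.3 at 38.4 kb and ZFAND6 at 88.1 kb, had smaller differences in KO C28 (-1.07, SE 0.47, and -0.81, SE 0.48).

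PTX3, a secreted pattern-recognition protein, was the one response gene that lay above WT in every library of both clones. It stood at 0.961 and 0.861 CPM in WT (21 reads in each library), 6.76 and 2.09 in KO C22, then 11.6 and 5.95 in KO C28, and at 0.464, 6.78 and 8.16 CPM in BruUV-seq. WT was lowest in both assays and the clones overlapped each other. The log2 difference was 2.78 (SE 0.75, adjusted p = 0.316) in KO C22, 3.49 (SE 0.77, adjusted p = 0.154) in KO C28 and 0.71 (SE 0.70) between the clones by edgeR, with 3.72 (SE 0.67) in KO C28 when its replicate 2 was left out. The adjusted p ran over 15 alternatives from 0.00311 to 1 in KO C22 and from 2.63e-05 to 0.719 in KO C28. PTX3 lies wholly inside VEPH1, a gene of 244 kb on the opposite strand, whose own log2 differences from WT were 1.02 (SE 0.63) for KO C22 and 3.01 (SE 0.65) for KO C28. Per kilobase PTX3 had 6.96- to 392-fold the CPM of VEPH1 across the 9 libraries, and the part of VEPH1 in the PTX3 value was not tested. The labels tie strand-specific reads to certain samples only, without saying which.

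ICAM1 stood at 4.35 and 23.4 CPM in WT, 11.3 and 8.65 in KO C22, then 3.00 and 1.49 in KO C28, and at 14.8, 17.3 and 9.67 CPM in BruUV-seq. KO C28 was lowest in both assays, but the WT replicates were further apart than WT replicate 1 was from KO C28. The log2 difference in KO C28 was -1.91 (SE 0.72, adjusted p = 0.461 by edgeR, 0.0977 to 0.983 over 15 alternatives), with 12 reads in KO C28 replicate 2, and -1.49 (SE 0.71) without that library. Antisense genes cover 95.6% of ICAM1, so its reads are uncertain where strands were not kept apart. SOD2, the mitochondrial superoxide dismutase and a classical target, was steady, at 90.6 and 104.9 CPM in WT, 89.8 and 134 in KO C22, then 85.3 and 84.4 in KO C28, with log2 differences of 0.15 and -0.15 (SE 0.33 each), and genes on the opposite strand cover 35.2% of it. SDC4 and TNFAIP2 had log2 differences of 0.21 (SE 0.55) and 0.55 (SE 0.56) in KO C22, and in KO C28 of -0.24 (SE 0.57) and 0.26 (SE 0.55).

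**Figure D4:**
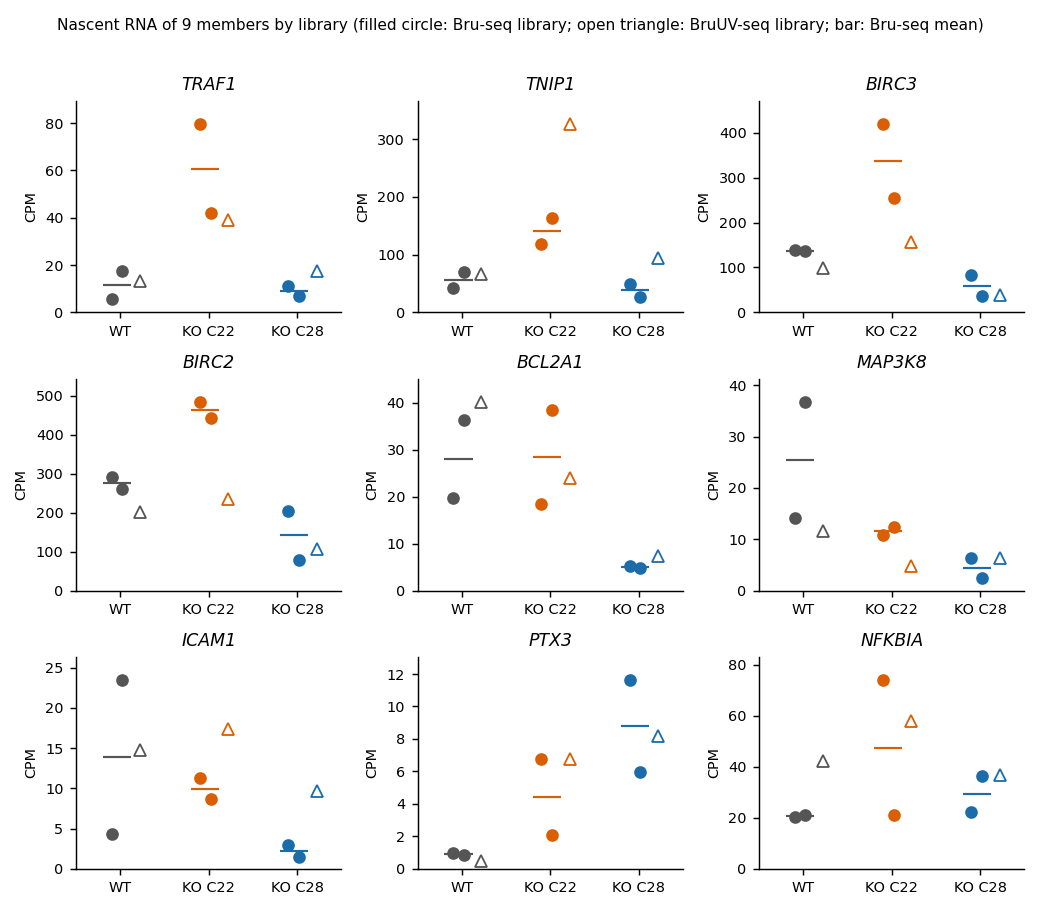
CPM (linear axes from 0) is drawn for 9 members in each library of the 3 lines, with filled circles for Bru-seq, open triangles for BruUV-seq and a bar at the Bru-seq mean. Within each assay BIRC3 and BIRC2 run from KO C22 at the top through WT to KO C28, BCL2A1 is low in KO C28 alone (4.83 to 7.26 CPM), and PTX3 is lowest in WT (0.464 to 0.961 CPM).

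BruUV-seq compared between lines had 1 library per line, so its ratios carry no replicate check. KO C22 exceeded WT over 2-fold for 5 members (all genes 13.9%) and was over 2-fold lower for 4 (all genes 14.0%). The 5 were PTX3, TNIP1, TRAF1, TNFAIP2 and NFKBIB, with log2 ratios of 3.59, 2.29, 1.54, 1.13 and 1.02, and the 4 were MAP3K14, RIPK2, MAP3K8 and NFKBIZ at -1.51, -1.38, -1.25 and -1.13. KO C28 exceeded WT over 2-fold for PTX3 alone (3.85; all genes 11.7%) and was over 2-fold lower for BCL2A1 and BIRC3 (-2.45 and -1.33; all genes 7.67%). KO C28 was over 2-fold lower than KO C22 for 6 members (BIRC3, TNIP1, BCL2A1, TNFAIP2, TRAF1 and BIRC2, from -1.99 to -1.13; all genes 9.89%) and exceeded it for MAP3K14 (1.74; all genes 12.9%).

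Across lines, BruUV-seq was compared with Bru-seq to show how the genes' signal sits after UV light. No member passed an adjusted p of 0.05 in either direction (edgeR; 0.427% of all genes were called higher and 0.0192% lower), and at an unadjusted p below 0.05, 12 stood higher (14.0% of all genes) and 1 lower (11.1%). With a gene length offset, which allows for a length trend in each library, 8 stood higher and 4 lower at that p (9.28% and 9.92% of all genes). DESeq2 called 8 higher and 1 lower (8.04% and 10.9% of all genes), edgeR without the filter 6 and 1 (2.41% and 3.34%), and limma-voom 1 higher (3.00%). The largest were TNFAIP2 (log2 difference 1.94, SE 0.47, adjusted p = 0.0688), RELB (1.56, SE 0.41), NFKB2 (1.45, SE 0.49), IRAK1 (1.44, SE 0.35) and TRAF2 (1.32, SE 0.37), and the lower one was NFKB1 (-1.31, SE 0.49, adjusted p = 0.145). With the length offset these 6 stood at 1.42, 1.40, 0.78, 0.77, 1.2 and -0.87. BruUV-seq exceeded both Bru-seq libraries in every line for 11 members (all genes 17.9%) and lay below both in every line for CYLD alone (all genes 8.55%). The result depended on Bru-seq KO C28 replicate 2: without it 8 members were called higher (IRAK1, NFKBIB, RELA, TNFAIP2, NFKB2, RELB, TRAF2 and TNIP2; all genes 9.01%) and NFKB1 and REL were called lower (all genes 6.02%). Without Bru-seq WT replicate 2, TNFAIP2 was called (adjusted p = 0.0489; all genes 0.614%). Its adjusted p ran from 0.000882 to 0.444 over 15 alternatives.

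Gene length went with this difference, as it did for all genes. The members run from 3.24 kb (NFKBIA) to 133.92 kb (TRAF3), with a median of 26.78 kb, and Spearman's rho between length and the log2 difference was -0.415 over the 33 and -0.472 over 20819 genes. These are descriptions across genes, which share libraries and are not independent replicates. The 7 members under 10 kb had a median of 1.24 (all genes of that length 0.63), the 11 of 10 to 30 kb 0.28 (0.28), and the 10 of 30 to 60 kb -0.52 (-0.13). The 5 over 60 kb did not follow the slope: NFKB1 was at -1.31, but SOD2, TRAF3, IRAK2 and IKBKB lay at 0.14, 0.49, 0.62 and 0.79, above the median of -0.74 for genes of that length. Of all genes over 60 kb, 19.3% lay above 0. For SOD2 both value and length are uncertain, given its opposite-strand genes and a RefSeq start 69288 bases inside the gene.

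**Figure D5:**
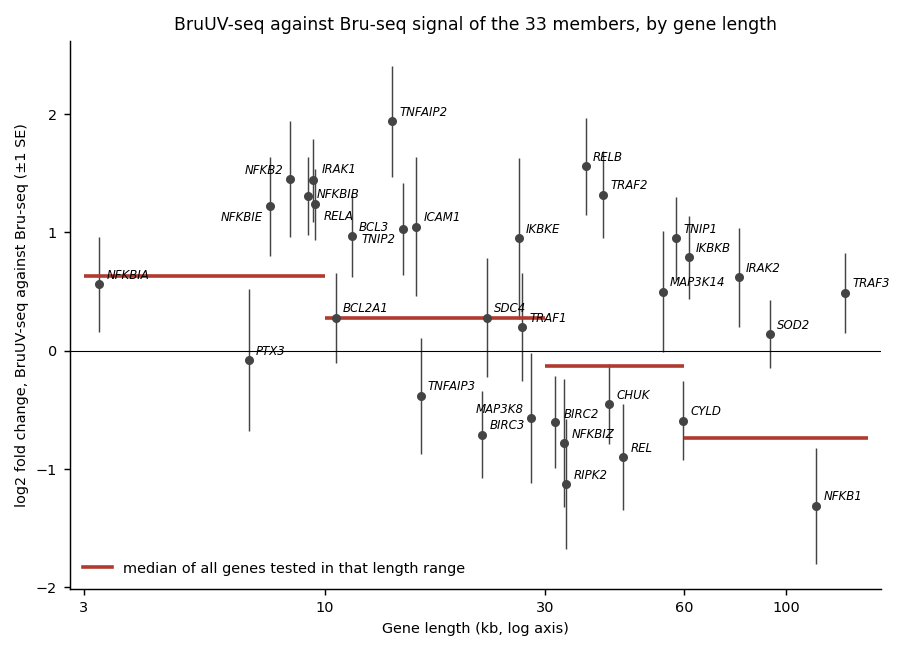
The log2 difference of BruUV-seq against Bru-seq (vertical axis, bars of 1 SE) is drawn against gene length in kb (log axis) for the 33 genes, with red lines at the median of all genes in each length range. Short genes such as RELA and NFKB2 lie above 0, and 4 of the 5 longest lie above their red line at -0.74.

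Other genes of the pathway, from a pair of lists drawn up beside the members, gave no calls between lines. Of 52 further signalling components, 48 were tested with 9 libraries and none was called in either direction against WT or between the clones (edgeR; at an unadjusted p below 0.05, 1 higher and 1 lower in KO C22, 1 and 0 in KO C28, 3 and 1 between the clones). Their median log2 difference was -0.15 in KO C22 (18 above WT) and -0.29 in KO C28 (17 above). At that unadjusted p, for this list and the next, 3.20% of all genes stood higher and 2.66% lower in KO C22. The shares were 7.55% and 2.91% in KO C28, and 2.96% and 2.75% between the clones. Of 46 further response genes, 36 were tested and none was called between lines (6 higher and 3 lower at an unadjusted p below 0.05 in KO C22, 3 and 2 in KO C28, 1 and 5 between the clones), with medians of 0.28 (20 above) and 0 (18 above). DUSP1, a phosphatase of MAP kinases, had the smallest adjusted p of that list in KO C22, at -1.49 (SE 0.42, adjusted p = 0.364). It stood at 57.2 and 141 CPM in WT, 39.7 and 36.0 in KO C22, then 53.5 and 45.3 in KO C28. For BruUV-seq against Bru-seq, 2 of the 36 response genes tested were called higher by edgeR, against 0.427% of all genes. DUSP1 had 404, 123 and 278 CPM in BruUV-seq (log2 difference 2.09, SE 0.34, adjusted p = 0.0374). JUNB had 55.3, 33.5 and 40.7 CPM, against 0.843 to 12.6 CPM in Bru-seq (2.98, SE 0.53, adjusted p = 0.0452). The part of gene length in these 2 differences was not tested.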

How the data were processed

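Bru-seq and BruUV-seq libraries of WT, KO C22 and KO C28 were used. Per the submitters' processing notes, the tools were CASAVA 1.8.2, Bowtie2 2.3.3, STAR 2.5.3a and bedtools 2.16.2, and hg38 and GRCh38 are named without a role. The sources used here do not give the annotation release. The authors deposited 1 table per library with an expected count for each gene (an estimate of its reads, often fractional) and an RPKM value per gene; the tables have no header, and these units were read from the values. Coordinates are those of the tables.

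Expected counts were rounded and tested with edgeR 4.0.16 in R 4.3.3 (filterByExpr by line, TMM, quasi-likelihood F test, Benjamini-Hochberg over all genes, threshold 0.05). The Bru-seq fit used 6 libraries (22827 genes, 3 residual degrees of freedom) and the joint fit 9 libraries with the assay as a covariate (20819 genes, 5 residual degrees of freedom); all 33 members passed the filter in both. The test was tried on simulated counts with less spread between libraries than these data and larger changes than most members showed, so that trial does not show its power here. DESeq2 1.42.0 and limma 3.58.1 (voom), other size factors, no filter, a gene length offset, a replicate block and leaving out each library were alternatives. BruUV-seq ratios between lines used a prior count of 2 and no test, over genes averaging 10 counts or more. Neighbours were genes within 500 kb averaging 100 counts or more. Promoter sequences are from RefSeq (GRCh38.p14).

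The 33 members, the other gene lists and the alternatives were chosen with earlier results of these data known. Any member may be named, up to 4 genes of each other list by the smallest p, and KDM6A. Genes near a member were named after their values were seen.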

Additional observations from a re-analysis of the deposited data

Results flagged for a closer look

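BIRC3 and BIRC2 were picked out because every KO C22 library lay above WT of its assay and every KO C28 library below it, so the clones differed from WT in opposite directions. The difference itself was tested between the clones. For BIRC3 it was -2.34 on the log2 scale (SE 0.44, adjusted p = 0.212 by edgeR, n = 3 libraries per line), and for BIRC2 -1.52 (SE 0.44, adjusted p = 0.563 by edgeR), and neither passed the threshold.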

How the results depend on the processing

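No member was called between lines in the Bru-seq or the joint edgeR fit, and the number called moved with the tool and the filter. With DESeq2 it was 1 (BIRC3) in Bru-seq between the clones, 3 in KO C22, 2 in KO C28 and 5 between the clones with both assays, and 9 for BruUV-seq against Bru-seq. Without the filter on low counts, both assays gave 1, 2 and 4 in the same order of lines and 7 for BruUV-seq. limma-voom gave 1 for BruUV-seq (TNFAIP2). Leaving out 1 library at a time gave 0 in KO C22 and between the clones, 0 to 1 in KO C28 with both assays (BCL2A1 without Bru-seq KO C22 replicate 2), and 0 to 10 for BruUV-seq (10 without Bru-seq KO C28 replicate 2). The median log2 difference of the members then ran from -0.27 to 0.56 (KO C22), -1.33 to -0.25 (KO C28) and -1.63 to -0.67 (between the clones) in Bru-seq, from 0.02 to 0.46, -0.51 to -0.11 and -0.79 to -0.31 with both assays, and from 0.19 to 0.74 for BruUV-seq. A gene length offset moved the Bru-seq median between the clones to -0.57. Non-overlapping higher members between the clones went from 0 to 5 without Bru-seq KO C28 replicate 2, a setting chosen after seeing the data. The rule is easier to pass with 1 library fewer, and all genes went from 7.99% to 18.5%. What a common replicate number stands for is not stated in the labels. Over 22827 genes, residuals of same-numbered libraries correlated at 0.427 for WT paired with KO C22. The value was 0.00409 for KO C28 paired with WT, while the clones gave -0.479. A fit with a replicate block called 3 members for BruUV-seq (TNFAIP2, RELA and IRAK1, against 4.05% of all genes) and none between lines. Of 579 alternative values for 41 selected pairs of a gene and a comparison, 530 kept their direction and side of the threshold, 49 crossed to below it, and 0 reversed. These pairs are a part of all pairs, and the alternatives reuse the same libraries, so this count does not measure how stable the members are. Across all members signs did change. The log2 difference ran from -1.3 to 1.19 for ICAM1 in KO C22 (Bru-seq), and from -0.18 to 1.02 for NFKB2 in KO C28 (both assays). The cause of these shifts was not tested. Depth was lowest in Bru-seq KO C28 replicate 2, and PTX3, ICAM1 and IKBKE rest on as few as 11 or 12 reads in a library.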
